A study of Arabidopsis thaliana with 12 samples.

Results

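The type-A Arabidopsis response regulators (ARR) are a family of small proteins that switch on early when a plant cell senses the hormone cytokinin. The family was taken as the 10 loci of ARR3 (AT1G59940), ARR4 (AT1G10470), ARR5 (AT3G48100), ARR6 (AT5G62920), ARR7 (AT1G19050), ARR8 (AT2G41310), ARR9 (AT3G57040), ARR15 (AT1G74890), ARR16 (AT2G40670) and ARR17 (AT3G56380), picked by locus name; the rule uses no measured value, but the family was chosen with earlier results of these data known. All 10 were among the 32833 genes in the deposited count table, and 8 were among the 20471 genes with enough counts to test. ARR3 and ARR17 were too low and are described by their counts alone. The 8 tested members held between 68 and 7414 counts in every one of the 12 libraries, so none of them passed the filter through 1 genotype alone.

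Cytokinin is bound by histidine kinase receptors of the AHK family, which pass a phosphate through the AHP phosphotransfer proteins to the type-B ARR transcription factors in the nucleus. Type-B ARRs switch on the type-A ARR genes, whose products dampen the same signal, so that their transcripts serve as a common readout of cytokinin signalling. The 10 members form 5 pairs of close relatives, ARR3 with ARR4, ARR5 with ARR6, ARR7 with ARR15, ARR8 with ARR9, and ARR16 with ARR17.

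RNA came from whole Arabidopsis thaliana seedlings harvested 12 days after germination, which had been grown in soil under long days at about 21 °C following 4 days of stratification at 4 °C. The genotypes were nrpb2-3, named for an allele of the gene for the second-largest subunit of RNA polymerase II, ssrp1-2 and spt16-2, named for alleles of the genes for the subunits SSRP1 and SPT16 of the histone chaperone FACT, and Columbia-0 (Col-0), the wild type. Each genotype had 3 libraries of total RNA. The labels give the alleles by name only and do not say whether replicates were separate sowings, so the p-values rest on differences among the libraries as deposited, whose spread may be technical. In RNA from whole seedlings, fewer cells of a type and less RNA per cell cannot be told apart.

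Libraries held 39483328 to 43434901 counts. The scaling factors of edgeR's TMM method, which correct for the make-up of each library, were 1.183 to 1.47 in nrpb2-3, 0.883 to 0.996 in ssrp1-2, 0.893 to 1.03 in spt16-2 and 0.849 to 0.925 in Col-0. Levels are given in CPM, a library's counts of a gene relative to its scaled total, and a gene was called where edgeR's quasi-likelihood test passed an adjusted p of 0.05, with the Benjamini-Hochberg method applied to all 20471 genes. Of the mutated genes, SSRP1 stood at 19.4 ± 1.39 CPM in ssrp1-2 and 43.8 ± 4.73 CPM in Col-0 (SD, n = 3 each; adjusted p = 0.000462, edgeR). SPT16 stood at 27.8, 55.4 and 30.0 CPM in the libraries labelled spt16-2, against 44.9, 62.0 and 54.6 CPM in Col-0, and was not called (adjusted p = 0.536, edgeR). The library labelled spt16-2 replicate 2 thus lay within the Col-0 range of SPT16. NRPB2 rose to 67.1 ± 1.96 CPM in nrpb2-3, against 42.3 ± 5.43 CPM in Col-0 (SD, n = 3 each).

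The upstream sequences of 4 members are shown because they belong to the 3 largest falls in nrpb2-3 (ARR4, ARR6 and ARR15) and to 1 member that was not called (ARR9). Each is the 250 bases before the annotated start of the gene, printed 5′ to 3′ on the strand of the gene, from the RefSeq assembly TAIR10.1, whose nuclear chromosomes are those of TAIR10. Capitals mark AGATT on either strand (AATCT on the printed one), the core of the sequence that type-B ARRs such as ARR1 are known to bind.
ARR4, chr1:3444361-3444610, minus strand: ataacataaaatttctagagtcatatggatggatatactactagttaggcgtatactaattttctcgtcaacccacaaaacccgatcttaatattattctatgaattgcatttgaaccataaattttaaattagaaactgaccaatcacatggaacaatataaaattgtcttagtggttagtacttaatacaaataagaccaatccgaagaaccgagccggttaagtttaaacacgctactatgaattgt
ARR6, chr5:25254319-25254568, minus strand: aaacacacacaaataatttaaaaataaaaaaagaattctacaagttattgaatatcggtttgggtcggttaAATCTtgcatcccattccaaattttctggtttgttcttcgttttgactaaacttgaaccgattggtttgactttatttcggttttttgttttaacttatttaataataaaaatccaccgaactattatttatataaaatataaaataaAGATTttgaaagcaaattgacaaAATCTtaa
ARR15, chr1:28133026-28133275, minus strand: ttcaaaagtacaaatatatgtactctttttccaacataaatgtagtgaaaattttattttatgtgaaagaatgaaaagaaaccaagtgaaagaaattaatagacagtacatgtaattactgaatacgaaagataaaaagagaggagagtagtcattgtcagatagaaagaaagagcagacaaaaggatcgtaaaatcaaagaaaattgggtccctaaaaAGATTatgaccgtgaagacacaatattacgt
ARR9, chr3:21108809-21109058, plus strand: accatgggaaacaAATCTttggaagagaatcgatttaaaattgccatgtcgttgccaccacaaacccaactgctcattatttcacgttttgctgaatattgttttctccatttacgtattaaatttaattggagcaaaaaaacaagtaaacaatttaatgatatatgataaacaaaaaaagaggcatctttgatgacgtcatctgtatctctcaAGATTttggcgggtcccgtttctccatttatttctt
AGATT occurred 3 times upstream of ARR6 and of ARR7, 2 times upstream of ARR9 and of ARR16, and 1 time upstream of ARR3, ARR8 and ARR15. It was not found in these windows of ARR4, ARR5 and ARR17. Of 27443 annotated genes, 63.7% had at least 1 match in the same window. ARR4, which fell in nrpb2-3, had no match here and ARR9, which was not called, had 2. The matches are a description of letters in this window, not of bound sites.

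Relatives within the family are similar enough to ask whether reads could be shared. Over their coding sequences, the 5 closest pairs were 79.0% to 84.2% identical, and no other of the 45 pairs exceeded 76.6%. The longest run of identical bases was 41 for ARR3 with ARR4 and for ARR8 with ARR9, and the runs are shown with the 11 bases common to both in capitals.
ARR3 and ARR4: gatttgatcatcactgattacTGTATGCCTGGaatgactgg
ARR8 and ARR9: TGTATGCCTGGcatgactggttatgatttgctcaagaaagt
The read length and the handling of reads with several placements are not given in the sources used here, so the small counts of ARR3 beside its abundant relative ARR4 are uncertain. Neighbouring genes on the opposite strand overlap 3 members. AT5G62910 shares 348 bases with ARR6 and averaged 13.6 CPM in nrpb2-3 and 15.0 CPM in Col-0, with a log2 fold change of -0.15 ± 0.18 (SE; adjusted p = 0.554, edgeR). The non-coding RNA genes overlapping ARR8 and ARR9 had 0 counts in every library.

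In nrpb2-3, 5 of the 8 tested members fell relative to Col-0 and none rose. Over all tested genes, 15.1% were called lower and 15.8% higher in this comparison. The median log2 fold change was -0.92 over the 8 members and 0.05 over all tested genes. The members that fell were ARR4, ARR6, ARR7, ARR15 and ARR16. For each of them all 3 nrpb2-3 libraries lay below all 3 Col-0 libraries, a pattern that 19.9% of tested genes showed.

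**Figure D1:**
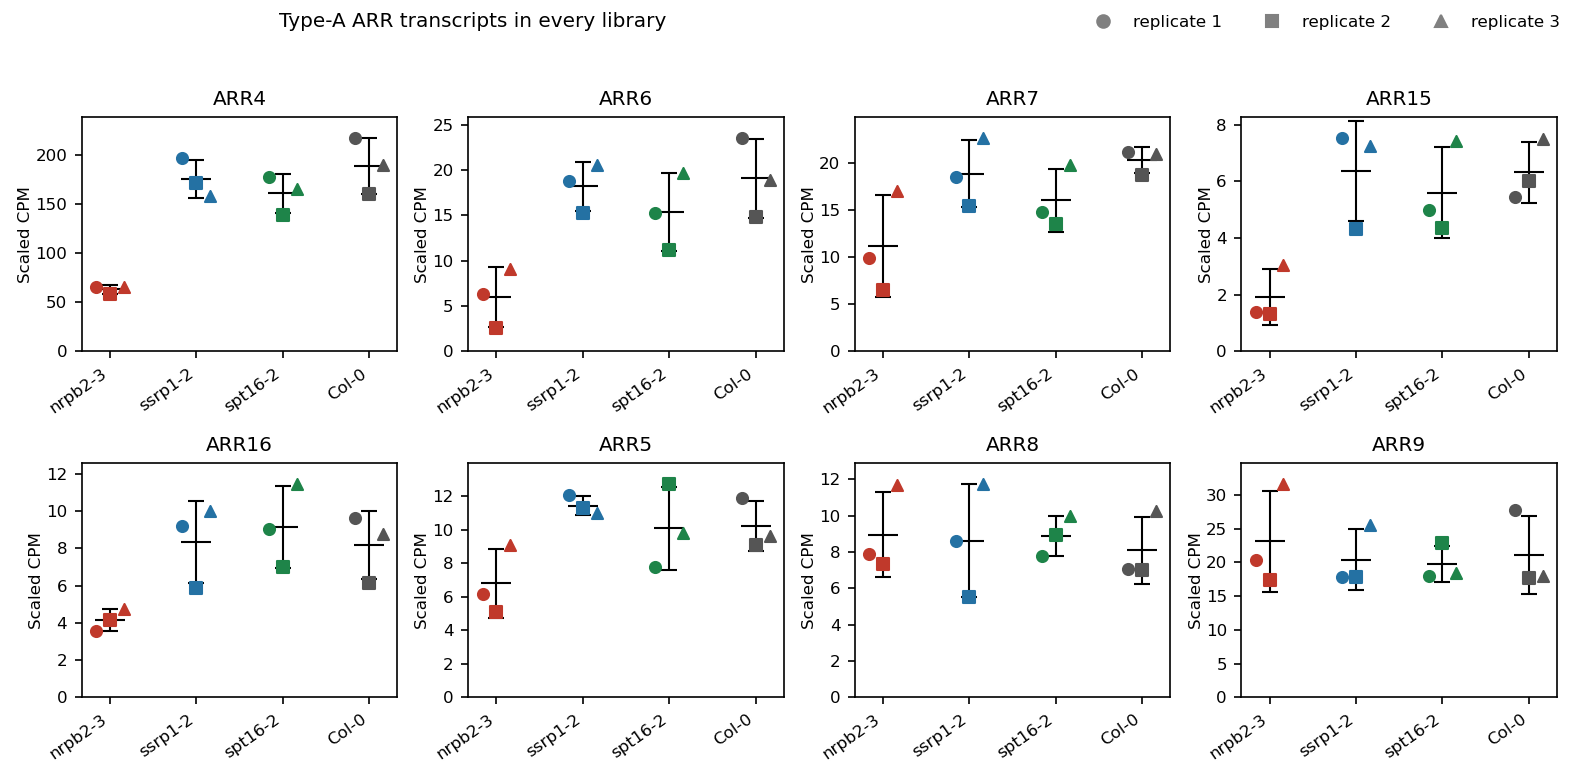
Level of each tested type-A ARR gene (scaled CPM, linear axes from 0) in the 12 libraries, by genotype. Points are libraries, with the marker giving the replicate number, and bars are the mean ± SD of 3 libraries; ARR4 in nrpb2-3 lies between 58.2 and 66.1 CPM, under every other library, while ARR8 and ARR9 overlap across all 4 genotypes.

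ARR4, which is known to bind phytochrome B and to link cytokinin with light signalling, was the most abundant member. It had 65.8, 58.2 and 66.1 CPM in nrpb2-3, against 217, 160 and 190 CPM in Col-0. The nrpb2-3 libraries lay close together and far under the wild type, 2.98-fold lower, with a log2 fold change of -1.58 ± 0.14 (SE; adjusted p = 1.7e-05, edgeR). In the FACT mutants ARR4 had 197, 171 and 158 CPM in ssrp1-2 and 178, 139 and 166 CPM in spt16-2, and both sets overlapped Col-0. Its close relative ARR3, which together with ARR4 affects the period of the circadian clock, gave 7 counts in all in nrpb2-3, 3 in ssrp1-2, 3 in spt16-2 and 13 in Col-0. No library held more than 6 counts of it, and no fold change is given.

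ARR6, a member whose transcript rises within minutes of cytokinin addition, had 6.31, 2.59 and 9.09 CPM in nrpb2-3, against 23.5, 14.8 and 18.9 CPM in Col-0. Replicate 2 was the lowest library in both genotypes, and the genotypes did not overlap. The fitted change was 3.17-fold lower, at a log2 fold change of -1.67 ± 0.38 (SE; adjusted p = 0.00791, edgeR). ARR6 in the FACT mutants ran from 15.3 to 20.6 CPM in ssrp1-2 and from 11.2 to 19.7 CPM in spt16-2. Its relative ARR5, whose promoter is widely used as a cytokinin reporter, had 6.15, 5.12 and 9.11 CPM in nrpb2-3, against 11.9, 9.09 and 9.62 CPM in Col-0. The highest nrpb2-3 library reached the lowest Col-0 library, so the groups overlapped. ARR5 was not called, with a log2 fold change of -0.59 ± 0.22 (SE; adjusted p = 0.057, edgeR). It passed the threshold with median-of-ratios size factors, with DESeq2, with the replicate number as a block, and without any one of nrpb2-3 replicate 3, spt16-2 replicate 1 and spt16-2 replicate 2. Its adjusted p was between 0.0125 and 0.0492 in these fits.

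ARR7 and ARR15 act in the shoot meristem, where the stem-cell regulator WUSCHEL is known to repress them. ARR15 had 1.39, 1.32 and 3.07 CPM in nrpb2-3, against 5.44, 6.0 and 7.49 CPM in Col-0. All nrpb2-3 libraries lay below all wild-type libraries. At 3.26-fold lower, a log2 fold change of -1.70 ± 0.34 (SE; adjusted p = 0.00241, edgeR), it was the largest fitted fall among the 8, though it differed from those of ARR6 and ARR4 by less than its SE. ARR7 had 9.90, 6.5 and 17.1 CPM in nrpb2-3, against 21.2, 18.8 and 21.0 CPM in Col-0. Replicate 3 of nrpb2-3 came close to the wild type without reaching it. The log2 fold change of ARR7 was -0.86 ± 0.28 (SE; adjusted p = 0.0372, edgeR), and this call was the least stable of the 5. Leaving out nrpb2-3 replicate 1 or 2, ssrp1-2 replicate 1, or any Col-0 library ended it (adjusted p from 0.0502 to 0.105), as did a fit of the nrpb2-3 and Col-0 libraries alone (adjusted p = 0.0752). Leaving out nrpb2-3 replicate 3 moved the log2 fold change to -1.32.

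ARR16, one of a pair studied in the stomatal lineage, had 3.57, 4.15 and 4.77 CPM in nrpb2-3, against 9.63, 6.15 and 8.76 CPM in Col-0. The genotypes did not overlap, and the log2 fold change was -0.97 ± 0.24 (SE; adjusted p = 0.00898, edgeR). ARR17 gave 0 counts in nrpb2-3, 7 in ssrp1-2, 4 in spt16-2 and 1 in Col-0. The 0 counts of 123743270 in the nrpb2-3 libraries allow up to 3 counts, or 0.0242 CPM before scaling. The 1 count in Col-0 lies under that limit, so no difference from Col-0 was detectable at this depth. The 7 counts in ssrp1-2, 5 of them in replicate 2, and the 4 in spt16-2 lie above 3, but no fold change is given from so few counts. Such limits cover counting error only.

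ARR8 and ARR9, which are known as the members least responsive to added cytokinin, were not called and had fitted values above 0. ARR8 had 7.89, 7.32 and 11.7 CPM in nrpb2-3, against 7.05, 7.01 and 10.2 CPM in Col-0, with a log2 fold change of 0.15 ± 0.26 (SE; adjusted p = 0.702, edgeR). ARR9 had 20.4, 17.4 and 31.6 CPM in nrpb2-3, against 27.7, 17.6 and 17.9 CPM in Col-0, with a log2 fold change of 0.13 ± 0.24 (SE; adjusted p = 0.702, edgeR). Both overlapped the wild type, and for both replicate 3 was the highest nrpb2-3 library. The SEs leave room for a modest change in either direction.

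**Figure D2:**
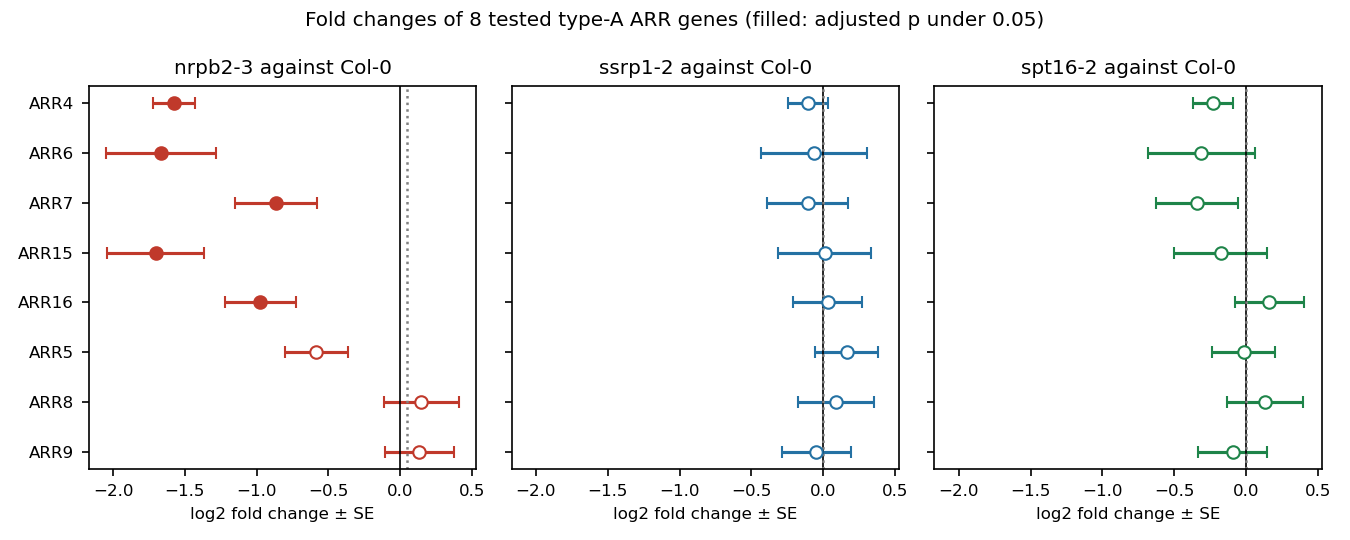
log2 fold change ± SE of the 8 tested members in each mutant against Col-0, with filled points where the adjusted p was under 0.05. The solid line marks 0 and the dotted line the median of all tested genes; 5 members are filled in nrpb2-3, from -0.86 to -1.70, and none in ssrp1-2 or spt16-2.

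The size of these falls depended on how libraries were scaled. With counts divided by library totals alone, the median log2 fold change of all tested genes in nrpb2-3 against Col-0 moved to 0.59, as against 0.05 with TMM factors, and 10688 of the 20471 tested genes were called higher and 758 lower, against 3238 higher and 3097 lower with TMM factors. On that scale ARR4, at -1.03, ARR6, at -1.07, and ARR15, at -1.12, were still called lower, while ARR7, at -0.27, and ARR16, at -0.42, were not. ARR4, ARR6 and ARR15 were called lower in every way of processing and with every library left out.

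**Figure D3:**
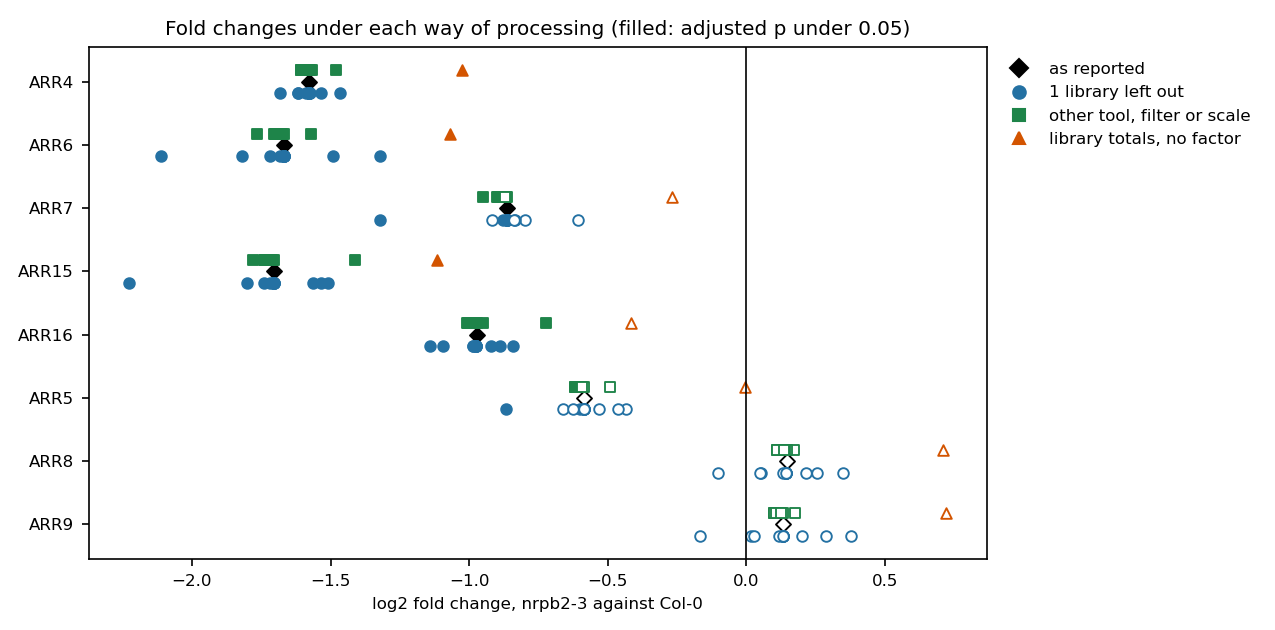
log2 fold change of each tested member in nrpb2-3 against Col-0 under each way of processing and with each library left out in turn; filled markers have an adjusted p under 0.05. ARR4, ARR6 and ARR15 stay filled throughout, and the triangles for library totals sit to the right of the other markers for every member, at 0.71 for ARR8 and 0.72 for ARR9.

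In neither FACT mutant was a type-A ARR gene called, higher or lower. In ssrp1-2 against Col-0, 0.557% of tested genes were called in either direction, so few calls would be found in any list of 8. The members' log2 fold changes ran from -0.11 to 0.16 there, with SEs of 0.14 to 0.37 and a median of -0.02. ARR4 had the smallest SE, at -0.11 ± 0.14 in ssrp1-2 (adjusted p = 0.898, edgeR). In spt16-2 against Col-0, 0.42% of tested genes were called in either direction. The members' log2 fold changes there ran from -0.34, for ARR7, to 0.16, for ARR16, with a median of -0.13. No member had an unadjusted p under 0.05 by edgeR in either comparison, and DESeq2 and limma also called none. Between libraries of the same replicate number, which were taken as pairs for spt16-2 against Col-0, ARR4, ARR7 and ARR15 were lower in spt16-2 in 3 of 3 pairs and the other 5 members were mixed. The share of all tested genes lower in 3 of 3 pairs was not computed, so no direction is read from this. With the replicate block ARR4 was at -0.23 ± 0.11, ARR7 at -0.37 ± 0.17 and ARR15 at -0.21 ± 0.22 there (SE; adjusted p from 0.443 to 0.769, edgeR), and no member was called.

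Per library, ARR7 had 18.6, 15.5 and 22.6 CPM in ssrp1-2 and 14.8, 13.5 and 19.8 CPM in spt16-2. ARR15 had 7.51, 4.32 and 7.26 CPM in ssrp1-2 and 5.0, 4.37 and 7.42 CPM in spt16-2. ARR16 had 9.23, 5.86 and 10.003 CPM in ssrp1-2 and 9.03, 6.99 and 11.4 CPM in spt16-2. For all 3 genes replicate 2 was the lowest library in both mutants, and both mutants overlapped Col-0. ARR5 was even in ssrp1-2, at 12.1, 11.3 and 11.0 CPM, and spread from 7.76 to 12.7 CPM in spt16-2. Leaving out the library labelled spt16-2 replicate 2 gave ARR7 a log2 fold change of -0.23, ARR4 one of -0.14 and ARR16 one of 0.32 in spt16-2 against Col-0, with none called.

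No type-A ARR gene was called between the FACT mutants. In spt16-2 against ssrp1-2, 0.0684% of tested genes were called in either direction, and none of the 8 members was, by edgeR, DESeq2 or limma or with the replicate block. Their log2 fold changes lay between -0.24, for ARR6, and 0.13, for ARR16, and none had an unadjusted p under 0.05. ARR6 and ARR7 were lower in spt16-2 in 3 of 3 same-numbered pairs, and with the block ARR6 was at -0.28 ± 0.22 and ARR7 at -0.24 ± 0.17 (SE; adjusted p = 1 for both, edgeR). The share of all tested genes with such pairs was not computed here either, and no direction is read from them.

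Set against the mean of ssrp1-2 and spt16-2, nrpb2-3 again had 5 lower members and none higher in the fit by genotype. Over all tested genes, 15% were called lower and 15.6% higher there. With the replicate number as a block 6 members were lower, where 3839 of the 20471 tested genes were called lower. This comparison tests the difference between the polymerase and FACT mutants itself, and it shares the nrpb2-3 libraries with the comparison to Col-0. ARR4 was at -1.41 ± 0.13, ARR6 at -1.48 ± 0.34, ARR15 at -1.62 ± 0.31 and ARR16 at -1.07 ± 0.22 on the log2 scale (SE; adjusted p from 1.2e-05 to 0.00871, edgeR). For these 4 all nrpb2-3 libraries lay below all 6 libraries of the FACT mutants, as 15.9% of tested genes did. ARR5 was also called, at -0.66 ± 0.19 (SE; adjusted p = 0.0197, edgeR), though its libraries overlapped, and it lost the call without nrpb2-3 replicate 1 or 2 and with library totals. ARR7 was not called, at -0.64 ± 0.25 (SE; adjusted p = 0.0735, edgeR). With the replicate number as a block, which the libraries of this comparison allow, ARR7 was called at -0.70 (adjusted p = 0.00368), as it was by DESeq2 at -0.67 (adjusted p = 0.0253) and without nrpb2-3 replicate 3 at -1.10 (adjusted p = 0.00358, edgeR). ARR8 stood at 0.03 ± 0.23 and ARR9 at 0.20 ± 0.21 (SE), neither called.

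Levels of different genes can be compared only per length, and for this the authors' scaled TPM table was used. In Col-0 ARR4 led at 134 ± 18.1 scaled TPM (SD, n = 3), followed by ARR7 at 32.2 ± 1.84, and neither range touched that of the next gene. ARR6 and ARR9 came next with overlapping ranges, then ARR5 and ARR15, also overlapping, then ARR16 and ARR8, which overlapped as well. ARR3 and ARR17 were at 0.196 scaled TPM or less in every Col-0 library. The FACT mutants kept the same order of mean levels for the 8 tested genes as Col-0.

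In nrpb2-3 the order differed. ARR4 still led, at 47.2 ± 3.26 scaled TPM (SD, n = 3), but ARR9, at 19.1 ± 6.03, and ARR7, at 18.5 ± 8.84, overlapped behind it. ARR5, ARR6 and ARR8 followed with ranges that overlapped from one to the next, and ARR16 and ARR15 came last of the 8. ARR9 made up 17.1% ± 1.48 of the family's summed scaled TPM in nrpb2-3 and 7.08% ± 1.12 in Col-0 (SD, n = 3 each). ARR4 made up 43.9% ± 7.58 in nrpb2-3 and 57.6% ± 0.533 in Col-0 (SD, n = 3 each). The family sum was 86.9 to 138 scaled TPM in nrpb2-3, 203 to 241 in ssrp1-2, 184 to 222 in spt16-2 and 202 to 261 in Col-0. Every nrpb2-3 library thus lay below every library of the other genotypes.

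**Figure D4:**
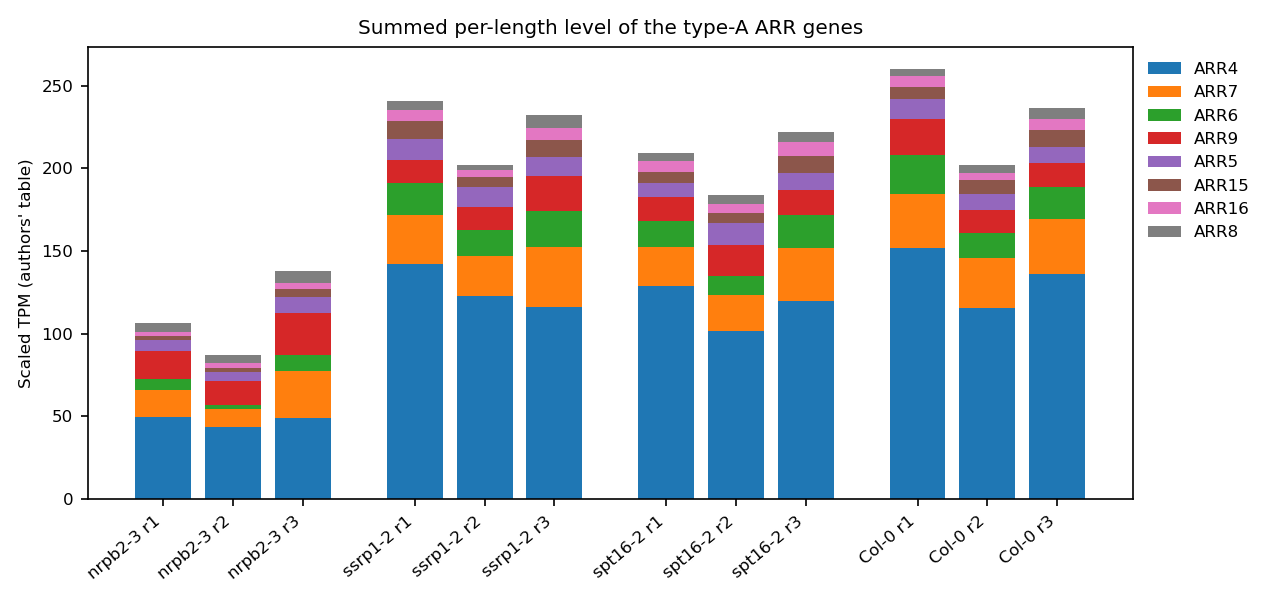
Summed per-length level (scaled TPM of the authors' table) of the type-A ARR genes in each library, stacked by gene, with r1 to r3 the replicates; ARR3 and ARR17 are too low to draw. The nrpb2-3 stacks reach 86.9 to 138 and the Col-0 stacks 202 to 261, with ARR9 a larger share of the nrpb2-3 stacks.

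Relatives were also set against each other as ratios of scaled TPM, for the 3 pairs with both members tested, and no ratio could pass a test in this design. The ratio of ARR6 to ARR5 was 1.02, 0.503 and 0.992 in nrpb2-3, against 1.96, 1.62 and 1.96 in Col-0, with no overlap. The ratio of ARR15 to ARR7 was 0.123, 0.178 and 0.157 in nrpb2-3, against 0.224, 0.280 and 0.312 in Col-0, also with no overlap. The ratio of ARR8 to ARR9 was 0.295 to 0.336 in nrpb2-3, within the Col-0 range of 0.203 to 0.457. An exact two-sided permutation test gave p = 0.1 for each of the first 2 ratios, the smallest that 3 libraries against 3 can give, so none of the 9 ratio tests over the mutants could pass 0.05 and no shift in balance is called. In spt16-2 the ratio of ARR6 to ARR5 was 1.96 and 2.00 in replicates 1 and 3 but 0.873 in the library labelled spt16-2 replicate 2.

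The members were also compared by profile, as the root mean square difference of log2 CPM centred on its mean over the 12 libraries. ARR8 and ARR9 were the most alike of the 28 member pairs, at 0.297, followed by ARR5 with ARR7 at 0.301 and ARR6 with ARR15 at 0.312. ARR6 and ARR9 were the least alike, at 0.828. Genes outside the family were ranked by closeness to the members' mean profile. The 5 closest were EXO70E2 at 0.109, RABA1e at 0.109, GLR2.7 at 0.149, ATCAD4 at 0.157 and APR2 at 0.160. The median over all tested genes was 0.504. The members themselves lay between 0.152, for ARR7, and 0.466, for ARR9, so a gene close to the mean is not close to every member. EXO70E2, an exocyst subunit, averaged 12.7 ± 3.34 CPM in nrpb2-3, 25.4 ± 5.64 in ssrp1-2, 22.3 ± 2.73 in spt16-2 and 23.5 ± 3.67 in Col-0 (SD, n = 3 each). RABA1e, a small GTPase gene, averaged 0.163 ± 0.214 CPM in nrpb2-3 and 0.587 ± 0.184 CPM in Col-0 (SD, n = 3 each), so its place rests on few counts.

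Upstream of the family in the pathway, AHP4 and ARR2 were called in nrpb2-3 against Col-0, both higher, where 15.8% of all tested genes were called higher and 15.1% lower. None of the 3 receptor genes AHK2, AHK3 and AHK4 was called by edgeR, DESeq2 or limma, with 1 at an unadjusted p under 0.05 (AHK4, log2 fold change 0.46 ± 0.20, SE). Of the 6 AHP genes tested, AHP4 rose and none fell. AHP4 had 10.1, 4.75 and 7.58 CPM in nrpb2-3, against 0, 0.115 and 0.242 CPM in Col-0, and only 0.0516 to 0.378 CPM in the FACT mutants. Its log2 fold change was 5.91 ± 0.57 (SE; adjusted p = 2.6e-05, edgeR). Of 6 type-B ARR genes tested among 11, ARR2 rose, with a log2 fold change of 0.50 ± 0.16 (SE; adjusted p = 0.0322, edgeR), a call that ended without any one of the 3 nrpb2-3 libraries or Col-0 replicates 2 and 3. With library totals all 3 receptor genes, 4 of the 6 AHP genes and 4 of the 6 type-B ARR genes were called higher, on a scale where most tested genes were. The type-C ARR genes, of which 2 were listed, had 0 counts throughout.

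**Figure D5:**
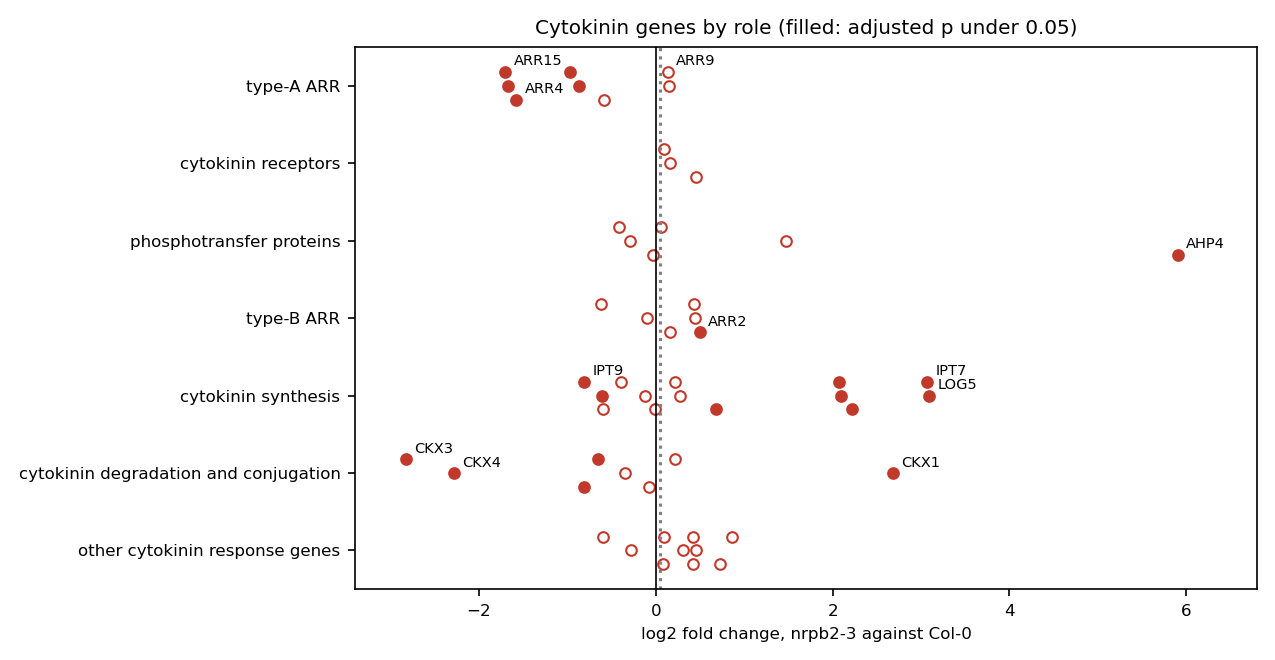
log2 fold change in nrpb2-3 against Col-0 of the tested cytokinin genes, 1 row per role, with filled points where the adjusted p was under 0.05 and small vertical offsets for legibility only. The solid line marks 0 and the dotted line the median of all tested genes, 0.05; the filled type-A ARR points all lie left of 0, while synthesis and degradation genes have filled points on both sides, with AHP4 at 5.91.

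Genes of cytokinin synthesis and removal moved in both directions. Of 14 tested synthesis genes, 6 rose and 2 fell in nrpb2-3 against Col-0 by edgeR, against 15.8% and 15.1% of all tested genes. Among those that rose, IPT7, LOG3 and LOG4 held 104, 147 and 90 counts over the nrpb2-3 libraries and at most 26 in any other genotype. Genes this low elsewhere may have passed the count filter through nrpb2-3 alone, so the 6 are not read against that share. Library totals gave 7 of the 14 higher and 0 lower, on a scale where 10688 of the 20471 tested genes were called higher and 758 lower. The limma fit, limited to genes at 1 scaled TPM or more in at least 3 libraries, called 2 higher and 2 lower. A gene that limma did not call may thus not have been tested by it. LOG5, of the family that releases active cytokinin from its nucleotide, had 2.01, 1.48 and 1.16 CPM in nrpb2-3, against 0.0585, 0.289 and 0.188 CPM in Col-0. The genotypes did not overlap (log2 fold change 3.09 ± 0.58, SE; adjusted p = 0.00166, edgeR). IPT5, which catalyses the first step of synthesis, rose by 2.22 ± 0.58 on the log2 scale (SE; adjusted p = 0.0113, edgeR), a call that ended without nrpb2-3 replicate 1 and was not made by limma. Of the others that rose, named here after their values were seen, LOG3 lost its call without any 1 of 11 libraries (all but nrpb2-3 replicate 2), LOG4 without nrpb2-3 replicate 3 or Col-0 replicate 1 or 2, and IPT2 without nrpb2-3 replicate 3 or Col-0 replicate 1. IPT7 kept its call with each library left out, at a log2 fold change of 3.07 (adjusted p = 0.0137, edgeR). It averaged 0.653 ± 0.146 CPM in nrpb2-3 and 0.0752 ± 0.0148 CPM in Col-0 (SD, n = 3 each). LOG4 stood at 2.07 on the log2 scale and at 3.19 without Col-0 replicate 3. LOG8 and the transfer RNA-type enzyme gene IPT9 fell, by 0.61 and 0.81 on the log2 scale, and neither was called with library totals.

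Of 8 tested genes of degradation and conjugation, 1 rose and 4 fell, against the same 15.8% and 15.1% of all tested genes, with a median log2 fold change of -0.50. With library totals 2 were called higher and 2 lower, where 10688 of the 20471 tested genes were called higher and 758 lower. The median of the 8 was then 0.04. CKX1, 1 of the cytokinin oxidases that break the hormone down, had 7.97, 6.23 and 7.56 CPM in nrpb2-3, against 1.05, 1.01 and 1.32 CPM in Col-0. All nrpb2-3 libraries were several times above all others (log2 fold change 2.68 ± 0.22, SE; adjusted p = 6.3e-06, edgeR). CKX4, of the same family, had 2.03, 3.74 and 1.94 CPM in nrpb2-3, against 9.57, 18.3 and 9.70 CPM in Col-0. It fell without overlap (log2 fold change -2.29 ± 0.29, SE; adjusted p = 0.000172, edgeR). CKX3 averaged 0.0433 CPM in nrpb2-3 and 0.330 CPM in Col-0 and fell by 2.83 ± 0.66 on the log2 scale (SE; adjusted p = 0.006, edgeR). It had no limma call, and at these levels it may not have reached the floor of 1 scaled TPM for the limma fit. UGT85A1, a zeatin glucosyltransferase gene, fell by 0.81 ± 0.18 on the log2 scale (SE; adjusted p = 0.00461, edgeR) and was not called with library totals.

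Of 10 other genes that respond to cytokinin, none was called in nrpb2-3 against Col-0 by edgeR, DESeq2 or limma or had an unadjusted p under 0.05. Their log2 fold changes ran from -0.60, for IAA3, to 0.86, for CRF3, with a median of 0.36, and the difference from the type-A ARR genes was not tested. IAA3 was called lower without Col-0 replicate 2. With library totals 6 of the 10 were called higher, on a scale where 10688 of the 20471 tested genes were. Against the FACT mean, CRF4 and CRF3, genes of the cytokinin response factor family, rose in nrpb2-3 by 0.79 ± 0.19 and 1.17 ± 0.39 on the log2 scale (SE; adjusted p = 0.00705 and 0.0377, edgeR). The CRF3 call ended without any one of nrpb2-3 replicate 3, ssrp1-2 replicates 1 and 2 and spt16-2 replicates 1 and 2, and without nrpb2-3 replicate 3 its log2 fold change was 0.54 (adjusted p = 0.364, edgeR). In ssrp1-2 and in spt16-2 against Col-0, none of the 55 tested genes of these cytokinin lists was called by edgeR or limma. Over all tested genes, edgeR called 0.557% and 0.42% in either direction. At an unadjusted p under 0.05 by edgeR there were 7 of the 55 in ssrp1-2 and 4 in spt16-2. The share of all tested genes at that unadjusted p was not computed, so these counts are not read as a result about the lists. DESeq2 called 1 of the 55 in each, AHP3 in both, which is named here after its values were seen.

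Markers of cell types and organs moved alongside the type-A ARR genes in nrpb2-3. Against Col-0, 15.8% of all tested genes were called higher there and 15.1% lower. Summed CPM of 5 photosynthetic leaf markers, all of which fell, was 15225 to 30055 in nrpb2-3 and 55056 to 63133 in Col-0, though the call of LHCB1.2 ended without any one of nrpb2-3 replicates 2 and 3 and Col-0 replicates 1 and 2. Shoot meristem markers, of which all 5 tested of 7 rose, summed to 104 to 129 CPM in nrpb2-3 and 45.8 to 63.1 CPM in Col-0, with the call of CLV1 ending without nrpb2-3 replicate 1. Their sums also lay above Col-0 in ssrp1-2, at 78.1 to 93.3 CPM with 1 marker called, and in spt16-2, at 64.8 to 79.5 CPM with 0 called. Most of each sum was CLV1, which averaged 73.8 CPM in nrpb2-3, 58.4 in ssrp1-2, 54.6 in spt16-2 and 46.4 in Col-0. CLV1 was not called in either FACT mutant. Root markers, of which 2 of 5 tested among 9 rose, summed to 179 to 313 CPM in nrpb2-3 and 83.9 to 125 CPM in Col-0. Most of that sum was 1 gene, PYK10, at 209 ± 64.1 CPM in nrpb2-3 and 83.4 ± 19.97 CPM in Col-0 (SD, n = 3 each), whose call ended without nrpb2-3 replicate 3 or Col-0 replicate 1. CASP1, a marker of the root endodermis, was not called and had a log2 fold change of -1.07 ± 0.60 (SE; adjusted p = 0.193, edgeR), so the sum does not stand for all root markers. The root hair regulators RHD6 and RSL4 had 0 counts in every genotype. Flower markers summed to 1.25 to 2.06 CPM in nrpb2-3, 17.5 to 22.9 in ssrp1-2, 22.2 to 26.1 in spt16-2 and 2.51 to 5.38 in Col-0. The part of these tissue differences in the type-A ARR levels was not tested.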

How the data were processed

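Counts per gene were deposited by the authors for 12 libraries, 3 per genotype. Per the submitters' processing notes the tools were fastp 0.23.4 and HISAT2 2.2.1 and the build was TAIR10; the counting tool, strand setting and handling of reads with several placements are not given in the sources used here. The second table deposited by the authors, headed TPM, is a signal rescaled between libraries ("scaled TPM"), used for levels per length and for 1 alternative. Counts were tested with edgeR 4.0.16 (R 4.3.3): filterByExpr with a minimum count of 10, TMM, and glmQLFit with robust estimation on the 12 libraries by genotype, for 5 comparisons. The procedure was tested on simulated data. Alternatives were DESeq2 1.42.0, limma 3.58.1 on log2(scaled TPM + 1), other scalings, no filter, the compared groups alone, a replicate block, and each library left out. The limma fit took only genes at 1 scaled TPM or more in at least 3 libraries. Same-numbered libraries deviated together (every correlation over 0.1) in spt16-2 against Col-0, spt16-2 against ssrp1-2 and nrpb2-3 against both FACT mutants. There the numbers, which the labels do not tie to a batch, were taken as pairs in the replicate-block fit and in the counts of pairs. The SEs, adjusted p-values and calls reported come from the fit by genotype, which ignores the pairs, unless another fit is named. In the other comparisons the lowest correlation was 0.02 and -0.05. With 3 libraries per genotype this cutoff cannot show that libraries were unpaired. Promoters were read from TAIR10.1 with Biopython 1.88. All members, all mutated genes, at most 4 called genes per other list and comparison (by adjusted p) and the 5 genes of most similar profile are named. The members and lists were chosen with earlier results of these data known.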

Additional observations from a re-analysis of the deposited data

Results flagged for a closer look

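The difference between the effect of nrpb2-3 and the mean effect of the FACT mutants was tested directly. In the fit by genotype it passed the threshold for 5 of the 8 tested type-A ARR genes, all lower in nrpb2-3. Over all tested genes, 15% were called lower and 15.6% higher in this comparison. ARR4 differed by -1.41 ± 0.13 (SE), ARR5 by -0.66 ± 0.19, ARR6 by -1.48 ± 0.34, ARR15 by -1.62 ± 0.31 and ARR16 by -1.07 ± 0.22 on the log2 scale (adjusted p from 1.2e-05 to 0.0197, edgeR's quasi-likelihood test with Benjamini-Hochberg adjustment). Each was lower in nrpb2-3 by group mean. For each of the 5 but ARR5, all 3 nrpb2-3 libraries lay below all 6 FACT libraries, as 15.9% of tested genes did. ARR5 lost its call without nrpb2-3 replicate 1 or 2 and with library totals. With the replicate number as a block, ARR7 was called lower as well.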

How the results depend on the processing

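With counts scaled to library totals, 3 type-A ARR genes in place of 5 were called lower in nrpb2-3 against Col-0. Against the FACT mean 1 was called higher in place of 0 (ARR9, 0.68, adjusted p = 0.0351, edgeR). There 10675 of the 20471 tested genes were called higher and 905 lower, and their median log2 fold change was 0.49, in place of 0.04 with TMM factors. The cause of the changed calls under library totals was not tested. The same scaling turned the sign of uncalled log2 fold changes of ARR6 (0.015) and ARR9 (0.042) in ssrp1-2 against Col-0 and of ARR5 (0.11) and ARR9 (0.035) in spt16-2 against Col-0. With the replicate block ARR5 was called in nrpb2-3 against Col-0 (-0.60, adjusted p = 0.048, edgeR). Same-numbered libraries were not taken as pairs there, at correlations of 0.02, 0.26 and 0.17, which do not show them unpaired. The block put ARR15 in ssrp1-2 against Col-0 at -0.0043, and beside ARR7 against the FACT mean it changed no other call. Counts of lower members lay between 4 and 6 with 1 library left out, in nrpb2-3 against Col-0 and against the FACT mean alike. Over those left-out libraries the uncalled values that crossed 0 were, in nrpb2-3 against Col-0, ARR8 from -0.10 to 0.35 and ARR9 from -0.17 to 0.38, and against the FACT mean ARR8 from -0.21 to 0.18 and ARR9 from -0.098 to 0.36. In ssrp1-2 against Col-0 they were ARR4 from -0.21 to 0.0054, ARR6 from -0.22 to 0.11, ARR7 from -0.26 to 0.018, ARR8 from -0.20 to 0.33, ARR9 from -0.25 to 0.20, ARR15 from -0.12 to 0.22 and ARR16 from -0.14 to 0.23. In spt16-2 against Col-0 they were ARR5 from -0.22 to 0.14, ARR9 from -0.21 to 0.15 and ARR16 from -0.030 to 0.32, and in spt16-2 against ssrp1-2 ARR8 from -0.20 to 0.33, ARR9 from -0.16 to 0.15 and ARR16 from -0.072 to 0.29. Depth limited ARR3 and ARR17 alone among the 10 members.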
